A study of Mus musculus with 64 samples.

Results

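Described here are 31 genes that encode subunits of glutamate and GABA receptors, chosen by name from the families of AMPA, NMDA, kainate, delta and metabotropic glutamate receptors and of GABA-A and GABA-B receptors. They are not a complete set of subunits. All 31 were found by gene identifier among the 55414 genes of the acute experiment and the 55573 genes of the continuous experiment, and all 31 passed the filter on low counts, as did 14611 and 14949 genes in total. RNA sequencing measured them in the left hippocampus of adult male mice of 10 to 18 weeks of age. The mice were F1 hybrids from a C57BL/6J father and a 129sv mother, and either wild type (WT) or a model of Angelman syndrome (AS, Ube3a m-/p+) in which exon 5 of the maternal Ube3a allele is deleted. The paternal allele is silent in neurons but not in other cells, so glia of AS mice keep 1 active copy. In the acute experiment WT and AS mice received a subcutaneous injection of vehicle or of 3 mg/kg corticosterone (CORT), the main glucocorticoid of rodents, 3 h before the tissue was taken, with 6 mice in each of the 4 groups. In the continuous experiment a vehicle pellet, which held cholesterol, or a pellet of 20 mg CORT was carried for 5 days, with 4 WT and 4 AS vehicle mice and 5 WT and 5 AS CORT mice after the study left out the mice H9 and H13 as technical outliers. Mice are numbered from H1 within each experiment.

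Fast excitation in the hippocampus runs through AMPA receptors, whereas NMDA receptors let calcium in and start synaptic plasticity, and kainate receptors act on both sides of the synapse. Metabotropic glutamate receptors signal through G proteins, GABA-A receptors are chloride channels that inhibit, and GABA-B receptors couple inhibition to G proteins. Glucocorticoids cross into the brain and act through receptors that bind DNA, and stress levels of the hormone are known for changing glutamate transmission in this region.

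Counts on genes numbered 19049461 to 21052967 per library in the acute experiment and 19112929 to 21783009 in the continuous one, so that 3 counts, taken as the floor of a library, equal 0.138 to 0.158 CPM (counts scaled to a common library size, with factors from the trimmed mean of M-values). Counts of Ube3a over all its exons did not separate the genotypes, with medians of 71.4 to 74.8 CPM in the 4 acute groups, and therefore did not serve as a check of the labels. Markers of neurons, dentate gyrus, CA1 and CA2 or CA3 were above the floor in every group, as were those of thalamus and striatum. This check therefore does not tell the hippocampus from other brain regions. In the acute experiment the libraries H17 to H24 held 2640 to 2850 reads set aside for low alignment quality and H1 to H16 held 1877 to 2237. The higher side takes in all 6 AS CORT mice (H19 to H24), the AS vehicle mice H17 and H18 and no WT mouse, so acute results are given with and without a term for these 8 libraries. Tissue was bulk, so fewer cells of a type and less RNA per cell cannot be told apart.

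Sequence upstream of 3 of the subunit genes that changed under CORT pellets is shown as a description. Whether motifs in it go with the direction of change was not tested. Gria2 (chr3:80802836-80803085, minus strand) rose under the pellets, whereas Grin2c (chr11:115267244-115267493, minus strand) and Grm3 (chr5:9725353-9725602, minus strand) fell. Each is given 5′ to 3′ as the 250 bases before the RefSeq start on GRCm38.p6, with the GC box GGGCGG, or its reverse complement CCGCCC, in capitals.
Gria2: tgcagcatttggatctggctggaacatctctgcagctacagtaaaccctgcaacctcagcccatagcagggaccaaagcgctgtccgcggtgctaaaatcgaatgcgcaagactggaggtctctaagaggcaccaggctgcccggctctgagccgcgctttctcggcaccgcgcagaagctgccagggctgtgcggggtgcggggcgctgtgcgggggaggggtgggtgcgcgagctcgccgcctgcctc
Grin2c: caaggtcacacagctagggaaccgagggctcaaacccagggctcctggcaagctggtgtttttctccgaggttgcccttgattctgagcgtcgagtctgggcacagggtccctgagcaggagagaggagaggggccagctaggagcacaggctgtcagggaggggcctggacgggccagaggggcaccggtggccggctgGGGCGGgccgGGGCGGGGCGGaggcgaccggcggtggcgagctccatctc
Grm3: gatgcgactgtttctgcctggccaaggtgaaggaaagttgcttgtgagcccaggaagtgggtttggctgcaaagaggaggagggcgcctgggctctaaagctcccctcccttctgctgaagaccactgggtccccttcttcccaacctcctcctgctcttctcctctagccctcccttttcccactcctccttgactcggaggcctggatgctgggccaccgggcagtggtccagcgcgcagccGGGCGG
The Grin2c stretch held 3 GC boxes, of which the last 2 share 1 base, the Grm3 stretch held 1 and the Gria2 stretch held 0. A promoter was found for 21 of the 31 genes, with 28 starts in all. A GC box was present at 50% of these starts and at 32.7% of all 32841 starts. The short motif of the glucocorticoid receptor, AGAACA or TGTTCT on the other strand, was present at 10.7% of the starts of the subunit genes, against 16.1% of all starts. The members that held it were Grm8 and Gabrb2, so none of the 3 stretches shown held it. The full palindrome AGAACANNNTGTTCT was at none of the 28 starts and at 0.00913% of all starts. The TATA box TATAAA, or TTTATA on the other strand, was at 10.7% of the starts of the subunit genes and at 12.4% of all. A match describes letters in a window of this length and not a bound site.

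Levels between subunits were compared per kilobase of exons (CPM per kb) in WT vehicle mice of the acute experiment, as mean ± SD of 6 mice. Positions are those of whole genes in GENCODE M21 on GRCm38, and values are counts over all exons of a gene. The median of the 31 subunits was 15 CPM per kb, and the range ran from Grm8 to Gria1. Among the AMPA receptor subunits, Gria1 (chr11:57011387-57330244, plus strand) stood at 208.3 ± 15.3 CPM per kb and made up 75.1% of the 4 genes. Gria2 (chr3:80681450-80802835, minus strand), whose edited product keeps calcium out of the channel, followed at 42.8 ± 2.18 CPM per kb. Gria3 and Gria4 were at 19.9 and 6.35 CPM per kb.

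Grin1 (chr2:25291181-25319187, minus strand), which encodes the subunit that every NMDA receptor needs, led its family with 93.4 CPM per kb and 59.5% of the 6 genes. Per kilobase of its longest transcript in place of all exons it stood at 211.8 CPM per kb. The glutamate-binding subunits Grin2a and Grin2b had 26.1 and 21 CPM per kb on that scale. Per kilobase of exons they were close, at 21.3 and 20.3 CPM per kb, and their values overlapped between mice. Grin2c (chr11:115249169-115267243, minus strand) was at 14.7, Grin2d (chr7:45831883-45878378, minus strand) at 3.82 and Grin3a (chr4:49661611-49845744, minus strand) at 3.57 CPM per kb. Grin2c is known from cerebellar granule cells and astrocytes, and Grin2d from interneurons.

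Of the kainate receptor genes Grik5 (chr7:25009849-25072346, minus strand), a high-affinity auxiliary subunit, was highest at 79.7 CPM per kb and took 78.5% of the 5 genes. Grik4, the other high-affinity subunit, stood at 10.4 CPM per kb. The channel-forming subunits Grik3 (chr4:125490700-125714173, plus strand), Grik2 (chr10:49094833-49788766, minus strand) and Grik1 had 6.16, 3.95 and 1.35 CPM per kb. Grid1, a delta receptor that links synapses through cerebellins, had 15.5 CPM per kb.

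Grm5, which couples to phospholipase C, was highest of the metabotropic receptors at 26.2 CPM per kb. Grm2 and Grm3 (chr5:9485541-9725170, minus strand), which inhibit adenylyl cyclase, had 16.4 and 15.9 CPM per kb. Relative to its mean Grm2 varied most between WT vehicle mice, from 34.1 to 102.1 CPM. The presynaptic receptors Grm7, Grm4 and Grm8 had 8.97, 2.42 and 0.373 CPM per kb.

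Of the GABA-A receptor genes, Gabra2 (21.2 CPM per kb), Gabrb1 (16.4), Gabrb2 (15), Gabra4 (14.3) and Gabra3 (11.7) lay close together. Gabrd, the subunit of extrasynaptic receptors of granule cells, had 9.43 CPM per kb and Gabrg1 had 1.42 CPM per kb. Gabra2 lies at chr5:70957597-71095849, minus strand and Gabra4 at chr5:71569749-71658308, minus strand, next to Gabrb1, with which it shares 46 exon bases on the other strand. Both members of the obligate GABA-B heterodimer were high, with Gabbr1 at 116.8 CPM per kb and Gabbr2 at 84.2 CPM per kb. Gabbr1 was above Grin1 per kilobase of exons, but below it per kilobase of the longest transcript, at 172.8 CPM per kb. On that scale Gria3 had 37.6 and Grm8 0.769 CPM per kb, and Gria1 and Grm8 were again the highest and the lowest of the 31. Grin1 shares 13.5% of its exon bases with the antisense gene Grin1os, and Grin2d 9.66% and Grm2 9.6% of theirs with Gm45441 and Gm28111. The libraries kept strand, but the strand setting of the counting is not given in the sources used here, so it is not known whether reads of these antisense genes entered the counts.

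**Figure D1:**
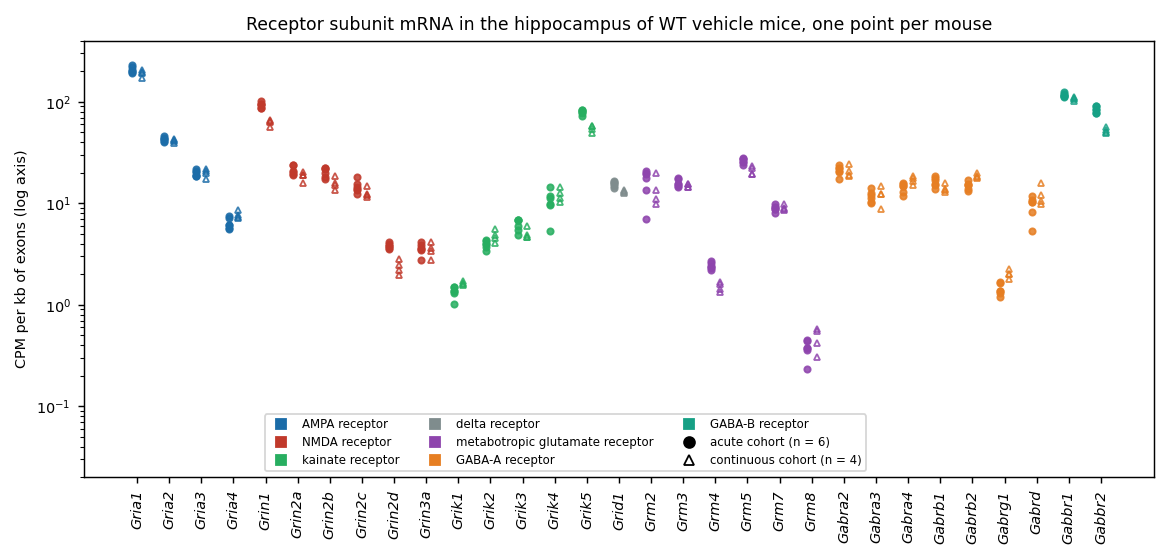
Level of each of the 31 receptor subunit genes in WT vehicle mice, in CPM per kb of exons on a log axis, 1 point per mouse, with circles for the 6 acute and triangles for the 4 continuous mice and colour for the receptor family. Gria1, Gabbr1 and Grin1 stand highest and Grm8 lowest, in both experiments.

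The first comparison asks what an injection of CORT does within 3 h in WT mice. No subunit passed the threshold of an adjusted p of 0.05 after Benjamini-Hochberg adjustment in the quasi-likelihood test of edgeR, where 1.48% of all genes did. With a term for H17 to H24 the count was also 0, beside 1.62% of all genes. The Wald test of DESeq2 and limma-voom also called 0 of the 31, beside 1.94% and 2.33% of all genes. An unadjusted p under 0.05 in edgeR was found for 0 of the 31 and for 1558 of the 14611 genes tested. The median log2 fold change was -0.0696 over the 31 genes and -0.00226 over all genes tested.

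Of the core subunits, Gria1, Grin2a, Grin2b and Gabbr1 are given first. Gria1 ran from 1160 to 1403 CPM (median 1238) in WT vehicle mice and from 1164 to 1254 (1200) in WT CORT mice. In AS mice it ran from 1162 to 1288 (1190) with vehicle and from 1128 to 1326 (1223) with CORT. All 4 groups overlapped, and its log2 fold change with CORT in WT mice was -0.06 ± 0.05 (SE). For the other core subunits that change was -0.13 ± 0.07 (Gria2), 0.08 ± 0.06 (Grin1), -0.12 ± 0.09 (Grin2a), -0.08 ± 0.08 (Grin2b) and -0.07 ± 0.05 (Gabbr1), with adjusted p from 0.562 to 0.779 in edgeR.

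Grin2a had group medians in WT mice of 370 CPM (vehicle) and 383 CPM (CORT), and in AS mice of 367 and 368 CPM, and the ranges overlapped. Grin2b had medians of 519 and 490 CPM in WT mice and of 513 and 471 in AS mice, with overlap throughout. Gabbr1 had medians of 897 and 862 CPM in WT mice and of 901 and 813 in AS mice. None of these 4 genes passed edgeR's test in any of the 5 acute comparisons, and limma-voom called Gabbr1 in AS CORT against AS vehicle mice, where it called 34.6% of all genes.

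The second comparison asks for the same effect in AS mice. Of the 31 subunits, 4 passed, of which Grik2 rose and Grin1, Grin2d and Grm4 fell, beside 17.9% of all genes (8.25% higher and 9.62% lower). DESeq2 called 4 beside 19.9% of all genes and limma-voom 8 beside 34.6%. The median log2 fold change was -0.0639 over the subunits and 0.00643 over all genes. With the term for H17 to H24, 0 of the 31 passed, beside 1.03% of all genes. In that fit 0 of the 31 and 1219 of the 14611 genes had an unadjusted p under 0.05 in edgeR. Of the core subunits that did not pass, Gria2 had 0.16 ± 0.07 on the log2 scale, Gria1 0.03 ± 0.05, Grin2a 0.07 ± 0.09, Grin2b -0.11 ± 0.08 and Gabbr1 -0.10 ± 0.05.

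Markers of cell types also passed in these mice. Of dentate gyrus markers 2 of 6 were higher (Dsp at 1.01 and Calb1 at 0.51 on the log2 scale), and their summed level ran from 332 to 628 CPM in AS vehicle and from 526 to 959 CPM in AS CORT mice. Of oligodendrocyte markers 3 of 8 were lower (Mag, Ermn and Mbp), with sums of 2604 to 5044 and 1756 to 3479 CPM. Of neuron and interneuron markers 1 of 8 each was lower (Thy1 and Slc32a1), as were 2 of 6 of microglia, 1 of 3 of oligodendrocyte precursors and 1 of 6 of striatum. Astrocyte markers had 2 of 8 higher and 2 lower, and endothelium (of 5) and thalamus (of 7) had 1 in each direction. Their part in the subunit calls was not tested.

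Grin2d ran from 20.9 to 30.1 CPM (median 25.3) in AS vehicle mice and from 18.1 to 23.98 (20.3) in AS CORT mice. Its log2 fold change was -0.33 ± 0.09 (adjusted p = 0.0112, edgeR) and -0.17 ± 0.12 (adjusted p = 0.817, edgeR) with the term for H17 to H24. The AS CORT mice sat at the low end, and the groups overlapped through the AS vehicle mice H16 and H17.

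Grin1 ran from 843 to 1005 CPM (median 936) in AS vehicle mice and from 763 to 906 (790) in AS CORT mice. The change was -0.17 ± 0.06 on the log2 scale (adjusted p = 0.0357, edgeR) and -0.05 ± 0.07 with the term for H17 to H24. H17 and H18, with 843 and 863 CPM, were below the other 4 AS vehicle mice, which had 919 to 1005 CPM.

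Grik2 ran from 50.2 to 66.0 CPM (54.0) in AS vehicle mice and from 60.5 to 73.6 (67.6) in AS CORT mice, a log2 fold change of 0.27 ± 0.08 (adjusted p = 0.018, edgeR). Its overlap rested on H17, the highest vehicle mouse. With the term the value was 0.15 ± 0.11. Grm4 ran from 14.3 to 22.4 CPM (17.8) in AS vehicle mice and from 10.96 to 15.1 (13.2) in AS CORT mice, a log2 fold change of -0.47 ± 0.14 (adjusted p = 0.0269, edgeR), and -0.30 ± 0.20 with the term. Again H17 was the vehicle mouse among the CORT mice. With each of the 12 AS mice left out in turn, Grin2d passed in 12 fits, Grik2 in 9, Grm4 in 8 and Grin1 in 5.

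The third comparison, AS against WT mice with vehicle, passed 0 of the 31 subunits in edgeR, in DESeq2 and in limma-voom. Of all genes 0.157%, 0.678% and 0.315% passed. An unadjusted p under 0.05 in edgeR was found for 2 subunits and for 1394 of the 14611 genes tested. The median log2 fold change over the subunits was 0.0357. The core subunits lay between -0.10 ± 0.09 (Grin2a) and 0.03 ± 0.08 (Grin2b), with Gria1 at -0.07, Gabbr1 at -0.05, Gria2 at 0.00 and Grin1 at 0.03. With the term for H17 to H24 the count was also 0, beside 0.151% of all genes, and 1 subunit and 2140 of the 14611 genes had an unadjusted p under 0.05 in edgeR.

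The fourth comparison, AS against WT mice with CORT, gave the most calls. Gria2, Grik2, Grik3, Gabra2 and Gabra4 were higher in AS mice and Grin1, Grin2d and Grik5 were lower. These 8 of 31 stand beside 24.9% of all genes, 11.7% higher and 13.2% lower. With the term for H17 to H24, 0 of the 31 and 0% of all genes passed with edgeR. An unadjusted p under 0.05 was found in edgeR for 0 of the 31 and for 794 of the 14611 genes. This fit takes the size of the division from 2 AS vehicle mice set against the other 4, so its errors are wider. The core subunits that did not pass without the term were Gria1 (0.02 ± 0.05), Grin2a (0.09 ± 0.09), Grin2b (0.00 ± 0.08) and Gabbr1 (-0.08 ± 0.05).

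Gria2 ran from 488 to 681 CPM (median 639) in WT CORT mice and from 709 to 789 (737) in AS CORT mice, with no overlap. The log2 fold change was 0.28 ± 0.07 (95% confidence interval 0.13 to 0.43, adjusted p = 0.00671, edgeR) and 0.08 ± 0.12 (-0.17 to 0.33) with the term. H17 and H18, which had no CORT, reached 737 and 719 CPM, inside the range of the AS CORT mice and above the 563 to 682 CPM of the other AS vehicle mice. The lowest WT CORT values were those of H8 and H11, with 488 and 536 CPM, while the other 4 had 631 to 681. These 2 mice were both below the other 4 WT CORT mice in 11 of the 31 subunits and both above them in 1. Without H8 the log2 fold change of Gria2 was 0.21 and the call remained, and without both it was 0.15 and missed the threshold (adjusted p = 0.0703, edgeR). Without both, 7 subunits passed in this comparison, beside 23.2% of all genes. Of the 8, Gria2 and Gabra2 (0.18, adjusted p = 0.148, edgeR) were lost, and Gabrd passed in addition.

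Grin1 ran from 909 to 995 CPM (963) in WT CORT mice and from 763 to 906 (790) in AS CORT mice, also without overlap. Its log2 fold change was -0.22 ± 0.06 (adjusted p = 0.00525, edgeR) and -0.05 ± 0.09 with the term. Grin2d ran from 24.8 to 33.0 CPM (25.8) and from 18.1 to 23.98 (20.3) in the same groups. They did not overlap, and the change was -0.42 ± 0.09 (adjusted p = 0.00158, edgeR), or -0.18 ± 0.15 with the term.

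Among kainate receptors, Grik2 ran from 39 to 54.7 CPM (52.2) in WT CORT mice and from 60.5 to 73.6 (67.6) in AS CORT mice. It had the smallest adjusted p of the 31, with a log2 fold change of 0.42 ± 0.08 (adjusted p = 0.000706, edgeR) and 0.24 ± 0.14 with the term, and the groups did not overlap. Grik3 overlapped, with 42.5 to 62.4 CPM (50.2) and 54.7 to 71.8 (63.4), and changed by 0.30 ± 0.11 (adjusted p = 0.0415, edgeR), or 0.15 ± 0.20 with the term. Grik5 overlapped too, with 400 to 557 CPM (436) and 331 to 415 (394), and changed by -0.22 ± 0.07 (adjusted p = 0.0245, edgeR). With the term Grik5 had -0.01 ± 0.12. Its highest value was WT CORT mouse H8 and its lowest AS CORT mouse H20. H17 and H18, with 398.5 and 384.7 CPM, were below the other AS vehicle mice, which had 435.2 to 478.5 CPM.

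Of the GABA-A receptor genes Gabra4, which forms extrasynaptic receptors with the delta subunit, ran from 71.2 to 91.8 CPM (79.3) in WT CORT mice and from 89.4 to 109.3 (94.6) in AS CORT mice. The log2 fold change was 0.29 ± 0.08 (adjusted p = 0.00722, edgeR) and 0.22 ± 0.14 with the term. Only H8 among the WT CORT mice reached into the AS range. Gabra2, a synaptic subunit, ran from 135 to 164 CPM (152) and from 152 to 212 (174), a change of 0.23 ± 0.08 (adjusted p = 0.0398, edgeR). With the term its sign turned, to -0.07 ± 0.13, and H17 and H18 had 187 and 195 CPM. When each of the 12 mice was left out in turn, Gabra2 passed in 3 fits and Grik3 in 4, Grik5 passed in 11, and Gria2, Grin1, Grin2d, Grik2 and Gabra4 passed in 12.

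**Figure D2:**
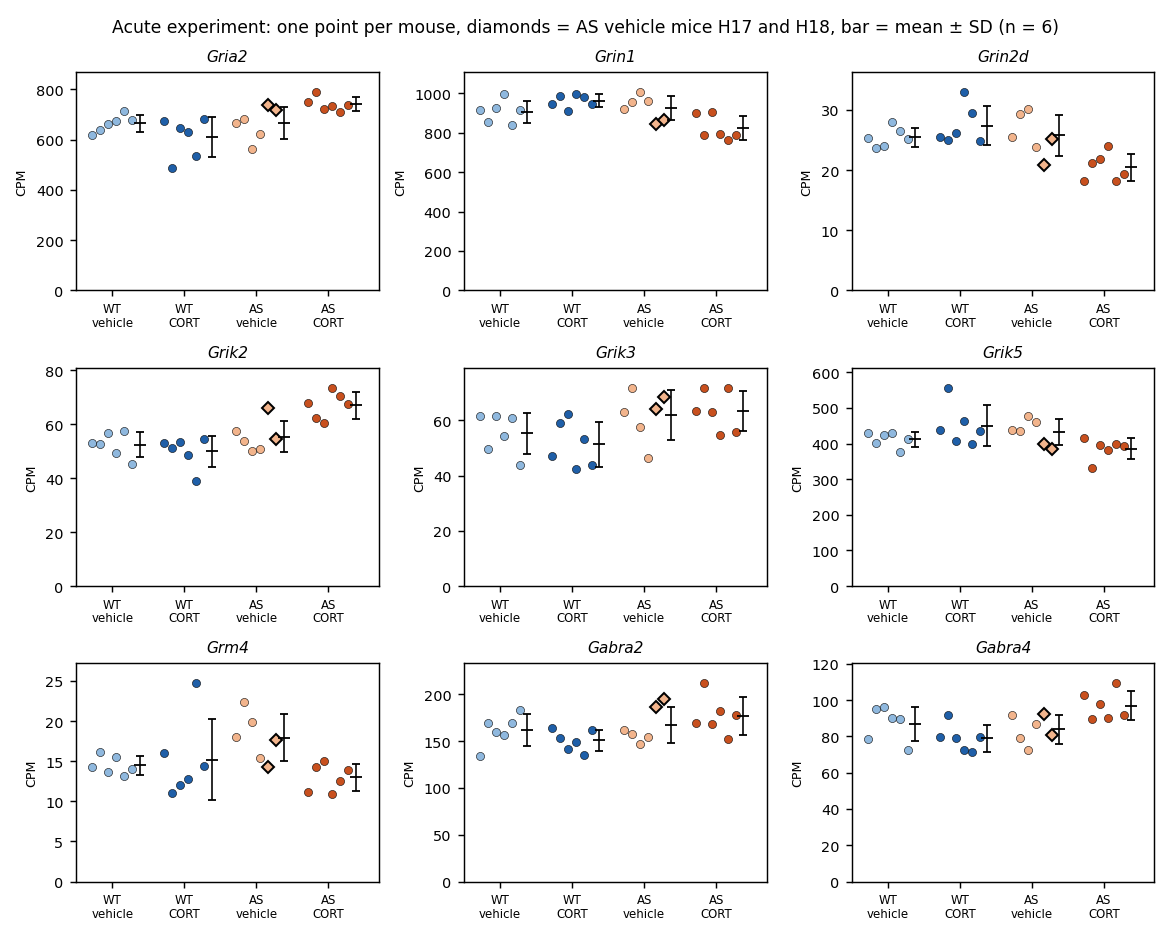
The 9 subunit genes called in AS CORT mice against AS vehicle or WT CORT mice, in CPM, 1 point per mouse of the acute experiment, with diamonds for the AS vehicle mice H17 and H18 and bars for the mean ± SD of 6 mice. In the panels of Gria2, Grin1, Grik5 and Gabra2 the diamonds lie with the AS CORT mice or between the groups, away from the other 4 AS vehicle mice.

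The fifth comparison, the difference of the CORT effects between AS and WT mice (interaction), passed 1 of the 31 in edgeR, where 4.49% of all genes passed. DESeq2 called 5 beside 11.2% of the genes to which it gave an adjusted p, and limma-voom called 7 beside 22.9% of all genes. Grin2d had an interaction of -0.44 ± 0.12 on the log2 scale (adjusted p = 0.0426, edgeR), from a change of 0.10 ± 0.09 in WT mice and of -0.33 in AS mice. After removal of the trends with GC content and length described below it was -0.17 ± 0.12 (adjusted p = 0.428, edgeR), and 0 subunits and 0% of all genes passed. With the term for H17 to H24 the count was 0, with 0.00684% of all genes, and 1 subunit and 788 of the 14611 genes had an unadjusted p under 0.05 in edgeR. Gria2 and Grin1 had interactions of 0.28 ± 0.10 and -0.25 ± 0.08 that did not pass. Gria1 had 0.09, Grin2a 0.19, Grin2b -0.03 and Gabbr1 -0.03. The Grin2d interaction passed in 13 of the 24 fits that left out a mouse. Of the markers 1 of 8 of neurons, 1 of 3 of oligodendrocyte precursors and 1 of 6 of striatum also passed in this comparison, with negative values, and their part in it was not tested.

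**Figure D3:**
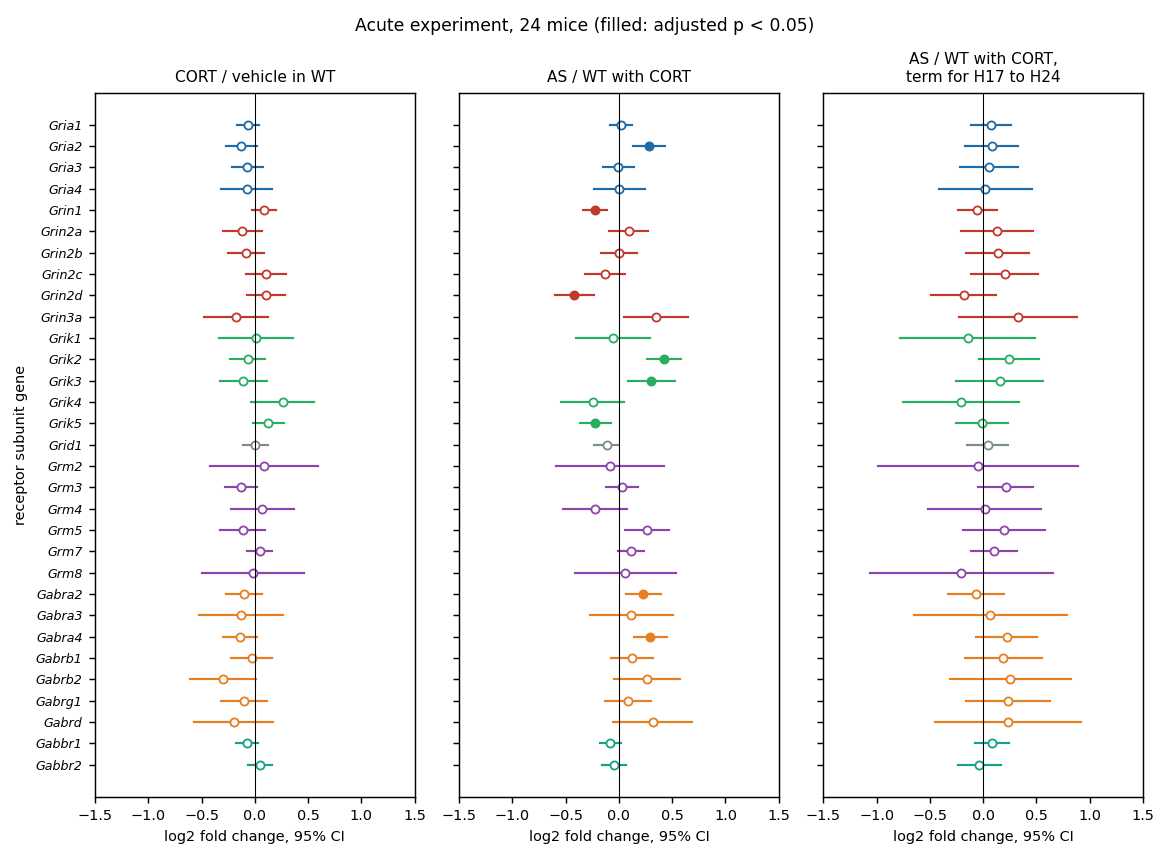
Log2 fold change with its 95% confidence interval for the 31 subunit genes in the acute experiment, for CORT against vehicle in WT mice, for AS against WT mice with CORT, and for the latter with a term for H17 to H24. Filled points passed an adjusted p of 0.05, which is 0 genes in the left panel, 8 in the middle and 0 in the right.

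The acute differences between AS and WT mice with CORT followed base composition. Over the 31 subunits the log2 fold change and the GC content of the longest transcript had a Pearson r of -0.666 and a Spearman rho of -0.621, against a Pearson r of -0.385 over 14591 genes. These points share the same 12 libraries and are not independent, so no p is given. Of the 13 subunit genes with GC content under 45%, 12 were above 0, with a median log2 fold change of 0.122. Of the 7 genes at or above 55%, 0 were above 0, with a median of -0.221. Among the called genes Gria2 (36.8% GC), Grik2 (37.9%), Gabra2 (38.4%) and Gabra4 (42.2%) were higher, and Grin1 (59.4%), Grik5 (61.7%) and Grin2d (65%) were lower. Grik3, at 54.2% GC, was the called gene off this order.

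The mice H17 and H18 against H13 to H16, which had the same genotype and treatment, gave a Pearson r of -0.605 over the 31 genes. No subunit passed in that comparison by edgeR, beside 8.23% of all genes. Of the 31, 5 had an unadjusted p under 0.05 in edgeR, as had 3204 of the 14611 genes tested. In AS against WT mice with vehicle r was 0.0872. CORT against vehicle in WT mice gave an r of 0.582, with 0 of 13 low-GC genes and 7 of 7 high-GC genes above 0, although none passed.

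When trends of counts with GC content and transcript length were taken out of each library, 1 subunit passed in AS against WT mice with CORT, where 19.1% of all genes did. It was Grik2, with a log2 fold change of 0.23 (adjusted p = 0.0361, edgeR). Grik3 kept its size at 0.34 ± 0.12 and missed the threshold (adjusted p = 0.0516, edgeR), and Gabra4 had 0.19 ± 0.07 (adjusted p = 0.0735, edgeR). Gria2 had 0.08 ± 0.04, Gabra2 0.06 ± 0.07, Grin1 -0.04 ± 0.04, Grin2d -0.16 ± 0.08 and Grik5 0.00 ± 0.06. In CORT against vehicle in AS mice the 1 subunit that passed was Gria3, with -0.18 ± 0.05 (adjusted p = 0.0217, edgeR), beside 16.8% of all genes. The 4 called there before had -0.02 ± 0.04 (Grin1), -0.11 ± 0.08 (Grin2d), -0.29 ± 0.14 (Grm4) and 0.21 ± 0.08 (Grik2), with adjusted p from 0.0605 to 0.748 in edgeR. Removing these trends also removes any true change that goes with GC content. The part of base composition in the calls was not tested beyond these fits.

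**Figure D4:**
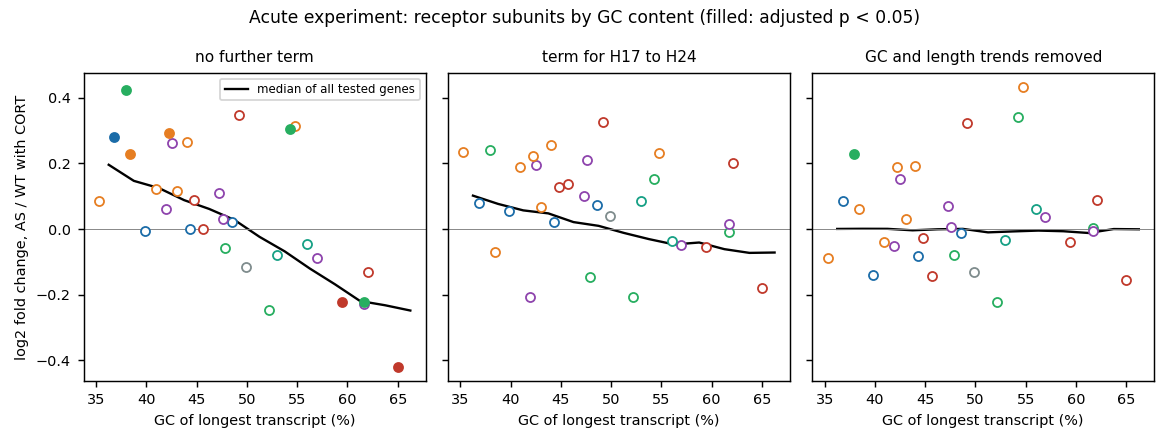
Log2 fold change of AS against WT mice with CORT plotted on the GC content (%) of the longest transcript for the 31 subunit genes, coloured by family and filled when the adjusted p was under 0.05, with a line for the median of all tested genes in bins of GC content. The downward slope (r = -0.666 over the subunits) is smaller with the term for H17 to H24 (r = -0.31) and near 0 after removal of the trends (r = -0.0198).

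Genes that work with the receptors are set beside the 24.9% of all genes that passed in AS against WT mice with CORT (11.7% higher and 13.2% lower). There, 2 of 38 scaffolds and auxiliary proteins of glutamate receptors were higher and 9 lower, among them Dlgap4 (-0.34 on the log2 scale), Lrrtm1 (-0.29) and the AMPA receptor auxiliary subunit Cacng7 (-0.46). Of 15 partners of GABA receptors, 2 were higher and 2 lower, with Nlgn2, the neuroligin of inhibitory synapses, at -0.49. Of 13 genes listed under glutamate supply and uptake, 0 were higher and 4 lower, with the glutamine transporter Slc38a3 at -0.37 and the vesicular glutamate transporter Slc17a7 at -0.29. This count includes Grina (-0.49), which is neither a transporter nor an enzyme of glutamate. Of 8 genes of GABA supply and uptake, 1 was higher and 3 lower, with the GABA transporter Slc6a11 at -0.40 and the vesicular GABA transporter Slc32a1 at -0.42. Their medians were -0.162, 0.0117, -0.168 and -0.126, beside -0.000212 over all genes. With the term for H17 to H24, 0 genes of these 4 lists passed in this comparison. In the same comparison 3 of 8 oligodendrocyte, 2 of 8 interneuron, 2 of 7 thalamic and 2 of 3 oligodendrocyte precursor markers were lower, and 3 of 6 striatal markers were lower and 1 higher. Of neuronal markers Thy1 (of 8), Wfs1 of CA1 (of 4) and Amigo2 of CA2 or CA3 (of 5) were lower, at -0.21, -0.59 and -0.54, and 0 of 6 dentate gyrus markers passed. Astrocyte markers had 1 of 8 higher and 2 lower, endothelium 2 of 5 lower and blood 1 of 5 higher. No neuronal, glial, thalamic or striatal marker of these lists was at the floor in every mouse of a group. The summed oligodendrocyte markers ran from 2033 to 6130 CPM in WT CORT mice and from 1756 to 3479 in AS CORT mice, and the summed interneuron markers ran from 739 to 949 CPM in WT CORT mice and from 597 to 849 in AS CORT mice. Their part in the results was not tested.

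Of the continuous experiment, CORT against vehicle pellets over both genotypes is given first, with 10 CORT and 8 vehicle mice. Of the 31 subunits 7 passed, beside 9.67% of all genes. Gria1, Gria2 and Grin2a rose, a direction in which 4.19% of all genes passed, and Grin2c, Grin3a, Grm3 and Gabra2 fell, as did 5.48% of all genes. The median log2 fold change was 0.0263 over the subunits and 0.00088 over all genes. Over the 31 genes the changes had a Pearson r of -0.0805 and a Spearman rho of -0.153 with GC content. With the log2 length of the longest transcript their Pearson r was 0.376.

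Gria1 had 1177, 1045, 1234 and 1174 CPM in WT vehicle mice and 1345, 1182, 1345, 1208 and 1333 CPM in WT CORT mice. In AS mice it had 1151, 1098, 1134 and 1161 CPM with vehicle and 1241, 1223, 1251, 1345 and 1207 CPM with CORT. The AS groups did not overlap, and of the WT CORT mice 3 were above every vehicle mouse. The log2 fold change was 0.15 ± 0.04 (adjusted p = 0.0193, edgeR), with 0.15 in WT and 0.14 in AS mice.

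Gria2 had 653, 633, 667 and 613 CPM in WT vehicle mice and 740, 655, 735, 637 and 739 CPM in WT CORT mice. AS mice had 615, 600, 618 and 582 CPM with vehicle and 701, 679, 655, 708 and 619 CPM with CORT. The AS groups were apart by a narrow gap and the WT groups overlapped. The change was 0.14 ± 0.04 (adjusted p = 0.021, edgeR).

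Grin2a, the NMDA receptor subunit that dominates at mature synapses, had 342, 283, 369 and 342 CPM in WT vehicle mice and 347, 330, 387, 376 and 409 CPM in WT CORT mice. In AS mice it had 322, 319, 313 and 294 CPM with vehicle and 420, 367, 348, 467 and 324 CPM with CORT. Overlap was present in WT mice and absent, by a small margin, in AS mice. The change was 0.23 ± 0.07 (adjusted p = 0.0366, edgeR).

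Grin2c had 61.9, 74.2, 60.5 and 57.9 CPM in WT vehicle mice and 54.3, 51.4, 55.9, 53.3 and 52.7 CPM in WT CORT mice. AS mice had 56.9, 65.4, 68.8 and 57.0 CPM with vehicle and 57.7, 46.0, 51.5, 57.3 and 55.04 CPM with CORT. The WT groups did not overlap and the AS groups did. The change was -0.23 ± 0.06 (adjusted p = 0.0105, edgeR).

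Grin3a, a subunit that lowers calcium flow, had 44.8, 41.4, 51.4 and 33.8 CPM in WT vehicle mice and 33.9, 49.7, 24.9, 29.2 and 27.9 CPM in WT CORT mice. In AS mice it had 60.2, 46.5, 48.2 and 48.3 CPM with vehicle and 44.9, 43.0, 35.7, 32.6 and 36.7 CPM with CORT. The AS groups were apart, whereas the WT CORT mice H3 and H5 reached into the vehicle range. The change was -0.38 ± 0.12 (adjusted p = 0.0402, edgeR).

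Grm3, a metabotropic receptor found on astrocytes as well as neurons, had 46.9, 44.5, 47.3 and 43.7 CPM in WT vehicle mice and 31.9, 32.1, 34.5, 41.7 and 35.6 CPM in WT CORT mice. AS mice had 41.4, 49.5, 39.2 and 49.2 CPM with vehicle and 42.4, 31.1, 32.3, 40.1 and 35.3 CPM with CORT. The WT groups did not overlap and the AS groups did. The change was -0.34 ± 0.07 (adjusted p = 0.00301, edgeR), the smallest adjusted p of the 31.

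Gabra2 had 159, 144, 185 and 141 CPM in WT vehicle mice and 139, 165, 142, 139 and 148 CPM in WT CORT mice. In AS mice it had 167, 160, 186 and 168 CPM with vehicle and 135, 155, 149, 138 and 144 CPM with CORT. The AS groups were apart and the WT groups overlapped. The change was -0.17 ± 0.05 (adjusted p = 0.0446, edgeR).

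Of the other core subunits, Grin1 changed by 0.04 ± 0.04 (95% confidence interval -0.05 to 0.13), Grin2b by 0.08 ± 0.06 (-0.05 to 0.21) and Gabbr1 by 0.06 ± 0.03 (0.01 to 0.12, adjusted p = 0.166, edgeR). None passed. Gabrg1, a GABA-A receptor subunit enriched in glia, had -0.33 (adjusted p = 0.083, edgeR) and Grik2 had -0.16 (adjusted p = 0.132, edgeR), values that also missed the threshold. When each mouse was left out in turn, Gria1, Grin2c and Grm3 passed in 18 of 18 fits and Gria2 in 17. Grin2a passed in 11, and Grin3a and Gabra2 in 6 each.

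**Figure D5:**
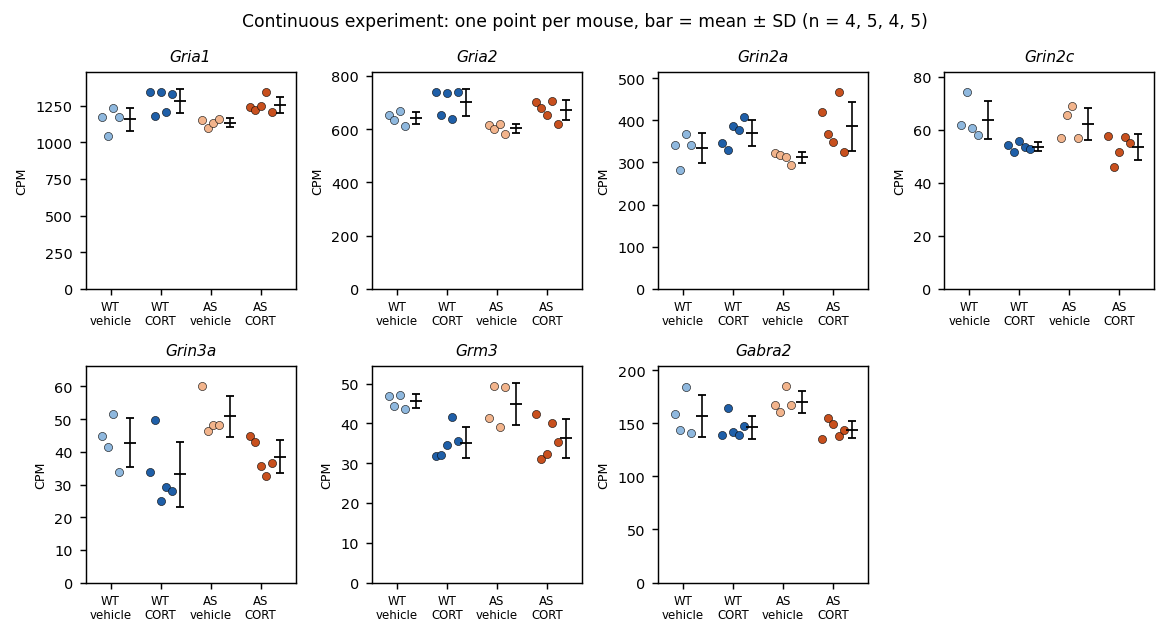
The 7 subunit genes called in CORT against vehicle pellets over both genotypes, in CPM, 1 point per mouse of the continuous experiment in 4 groups, with bars for the mean ± SD of 4 or 5 mice. Gria1, Gria2 and Grin2a sit higher with CORT and Grin2c, Grin3a, Grm3 and Gabra2 lower, in WT and in AS mice alike in direction.

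Within single genotypes few subunits passed. In WT mice CORT pellets gave 1 call, Grm3 at -0.37 ± 0.10 (adjusted p = 0.0415, edgeR), beside 2.92% of all genes, and the call remained in 1 of 9 fits that left out a mouse. In AS mice 0 passed in edgeR, beside 3.77% of all genes, with 2 calls in DESeq2 (5.1% of all genes) and 1 in limma-voom (5.83%). There 8 subunits had an unadjusted p under 0.05 in edgeR, as had 2275 of the 14949 genes tested. The AS value of Grm3 was -0.31 ± 0.10 (adjusted p = 0.0951, edgeR). The interaction passed 0 of the 31 in edgeR, DESeq2 and limma-voom, which each passed 0% of all genes. For it 0 subunits had an unadjusted p under 0.05 in edgeR, beside 561 of the 14949 genes. The core subunits changed with CORT in WT mice by 0.15 (Gria1 and Grin2a), 0.13 (Gria2), 0.06 (Gabbr1) and 0.03 (Grin1 and Grin2b) on the log2 scale. In AS mice they changed by 0.31 (Grin2a), 0.16 (Gria2), 0.14 (Gria1), 0.13 (Grin2b), 0.07 (Gabbr1) and 0.05 (Grin1), and none passed within a genotype in edgeR. Their interactions were 0.16 (Grin2a), 0.10 (Grin2b), 0.03 (Gria2), 0.02 (Grin1), 0.01 (Gabbr1) and -0.01 (Gria1).

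Cell type markers also passed within the genotypes, as measured beside Grm3 in WT mice. There 2 of 8 astrocyte markers were higher and 3 lower, and 1 of 3 markers of oligodendrocyte precursors (Gpr17 at -1.04) and 2 of 6 of microglia were lower. Of 10 choroid plexus markers 7 were tested and 2 were lower, Ttr at -4.57 ± 1.22 and Folr1 at -3.35 ± 0.79 on the log2 scale (adjusted p = 0.0484 and 0.0253, edgeR). The summed choroid plexus markers ran from 81.3 to 2970 CPM in WT vehicle and from 39.0 to 133.5 in WT CORT mice, and from 89.3 to 338.1 in AS vehicle and from 48.9 to 524.8 in AS CORT mice. In AS mice 0 of the 7 passed, and over both genotypes 0 did. Over both genotypes 4 had an unadjusted p under 0.05 in edgeR, as had 3323 of the 14949 genes tested. The other markers that passed in AS mice were 5 of astrocytes (2 higher and 3 lower), 1 of oligodendrocyte precursors, 2 of microglia and 1 of endothelium, all 4 lower, and 1 of interneurons, which was higher. Their part in the Grm3 call was not tested.

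AS against WT mice passed 0 of the 31 in edgeR, DESeq2 and limma-voom, with vehicle (0.0134%, 0.12% and 0.0468% of all genes) and with CORT pellets (0.0401%, 0.321% and 0.174%). With vehicle the core subunits had -0.10 (Grin2a), -0.09 (Gria2), -0.03 (Gria1), -0.02 (Grin2b) and 0.01 (Grin1 and Gabbr1). With CORT they had -0.06 (Gria2), -0.03 (Gria1), 0.02 (Grin1 and Gabbr1), 0.06 (Grin2a) and 0.08 (Grin2b). At an unadjusted p under 0.05 in edgeR there were 1 with vehicle and 4 with CORT, beside 1098 and 1523 of the 14949 genes tested. Averaged over the treatments the core subunits had -0.07 (Gria2), -0.03 (Gria1), -0.02 (Grin2a), 0.01 (Grin1), 0.02 (Gabbr1) and 0.03 (Grin2b). There 0 of the 31 passed beside 0.348% of all genes, DESeq2 called 0 beside 2% and limma-voom 1 beside 2.43%. In edgeR 5 of the 31 averaged differences had an unadjusted p under 0.05, as had those of 1930 of the 14949 genes tested. The widest of those differences were Grm2 at -0.53, Grm4 at 0.39 and Gabra3 at 0.37 on the log2 scale, with adjusted p of 0.13, 0.189 and 0.211 in edgeR.

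The mice H9 and H13, which had vehicle pellets and were left out by the study, were both below the other 18 mice in 13 of the 31 subunits, both above them in 4 and both inside their range in 3 (Grin3a, Grik2 and Gabra3). H9 had 377 and H13 had 353 CPM of Gria1 on the scale of all 20 mice, where the other 18 had 1053 to 1355 CPM. Gabra2 was at 57.8 and 68.9 CPM in them, against 136 to 187 CPM in the others, and Grm3 was at 73.0 and 82.5 CPM, against 31.4 to 49.8. With both mice included 1 subunit passed over both genotypes, Grm3, beside 7.33% of all genes.

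Astrocyte markers are given beside Grm3, Grin2c and Gabrg1. Over both genotypes 2 of the 8 rose with CORT pellets and 4 fell, with a median of -0.19. Their summed level was 1695 to 1935 CPM in WT vehicle and 1747 to 2010 in WT CORT mice, and 1638 to 1695 in AS vehicle and 1789 to 2045 in AS CORT mice. Of neuron markers 0 of 8 passed. Of the markers of oligodendrocyte precursors 1 of 3 fell, of microglia 3 of 6, of thalamus 2 of 7 and of endothelium 1 of 5, while 1 of 8 interneuron markers rose. Of 6 dentate gyrus markers Calb1 rose by 0.29 on the log2 scale and Plk5 changed by -0.71. The part of cell composition in the subunit changes was not tested.

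The partner genes under CORT pellets over both genotypes are to be read beside the 9.67% of all genes that passed. They held 4 higher and 1 lower of 38 glutamate receptor partners, with Cacng4 at -0.28, Camk2b at 0.22 and Cacng5 at 0.40 on the log2 scale. Of GABA receptor partners 2 of 15 were higher and 0 lower, namely Shisa7 at 0.28 and Plcl1 at 0.34. Of glutamate supply and uptake 2 of 13 were higher and 2 lower, with Glul, the glutamine synthetase of astrocytes, at 0.36 (adjusted p = 2.4e-05, edgeR). The glutamine transporters Slc38a2 and Slc38a3 changed by 0.50 and -0.66, the latter with an adjusted p of 2.87e-08 in edgeR. Of GABA supply and uptake 0 of 8 were higher and 1 was lower, Slc6a11 at -0.38. The medians of these lists were 0.0376, 0.0314, -0.0765 and 0.00701.

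Ratios within a library do not depend on its scaling. The log2 ratio of Grin2a to Grin2b counts had group medians of -0.35 and -0.46 in acute WT mice with vehicle and CORT, and of -0.54 and -0.33 in AS mice. Acute AS vehicle mice ran from -0.60 to -0.41 and AS CORT mice from -0.44 to -0.27. The groups overlapped through H17, the highest vehicle mouse at -0.41, while H18 had -0.53 and H13 to H16 had -0.60 to -0.54. With pellets the medians were -0.21 in WT vehicle, -0.05 in WT CORT, -0.32 in AS vehicle and -0.09 in AS CORT mice. They were higher with CORT in both genotypes, with overlap.

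The log2 ratio of Gria1 to Gria2 counts had medians of 0.95 and 0.95 in acute WT mice with vehicle and CORT, and of 0.88 and 0.73 in AS mice. Among AS vehicle mice H17 and H18 had 0.68 and 0.69, inside the 0.60 to 0.87 of the AS CORT mice, while H13 to H16 had 0.82 to 1.05. With pellets the 4 group medians lay between 0.86 and 0.93, and single mice between 0.724 and 0.997. Within each experiment the ranges of CORT and vehicle mice overlapped in both genotypes.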

How the data were processed

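Hippocampal RNA of 24 acute and 20 continuous mice was used. The deposited values are raw counts per gene that the authors made with FastQC, MultiQC, STAR and HTSeq on mm10, per the submitters' processing notes; the libraries kept strand, and the annotation release and strand setting of the counting are not given in the sources used here. Genes were named with GENCODE M21 (GRCm38). Reads on no gene, 13.0% to 15.9% (acute) and 11.7% to 13.9% (all 20 continuous libraries), stayed out of library sizes. No column lacked a sample (0).

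A gene was tested when 3 or more replicates of some group each had over 20 normalized counts. R 4.3.3, edgeR 4.0.16 (quasi-likelihood test, TMM, all groups in 1 fit per experiment, Benjamini-Hochberg over all genes, threshold 0.05) was the test, with limma 3.58.1 and DESeq2 1.42.0 as alternatives (for DESeq2, shares of all genes are of those given an adjusted p). Errors of log2 fold changes are SE and intervals are 95%. H9 and H13 were left out, as the study did. The term for H17 to H24 separates 8 libraries that differ in reads of low alignment quality; what made them differ is not stated. Liver libraries entered no comparison. Groups came from the labels, and replicates are separate mice. Library pairs differed beyond sampling noise (chi-square per gene of at least 5.61 and 4.44).

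Genes named were the called subunits and, in every comparison, Gria1, Gria2, Grin1, Grin2a, Grin2b and Gabbr1; partner genes were at most 3 called genes a list with the smallest adjusted p. Other genes named were chosen after their values were seen. The members and gene lists were chosen with earlier results of these data known. The method was tested on simulated data for CORT against vehicle in WT mice: at log2 changes of 0.5 and 1 it recovered 85% and 99% of changed genes among 14473 acute genes, and 80% and 100% among 14795 continuous genes. Every subunit change called in the main fits was smaller than 0.5, so recovery at those sizes was not tested. The simulation held no division of libraries, GC trend or outlying mice. Alternatives were other scaling, filters, tools and thresholds, removal of GC and length trends, and each mouse left out. Using only the groups compared is among them. The comparison of H17 and H18 with H13 to H16, and leaving out H8 and H11 together, were chosen after seeing the data. Intervals come from the fits over mice and include variation between them, whereas floors rest on counts alone.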

Additional observations from a re-analysis of the deposited data

Results flagged for a closer look

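In groups of 4 to 6 mice the gap between the highest or lowest mouse and its neighbour was set against the range of the group. Gap and range were taken on the log2 scale, while levels are printed in CPM. Of 264 groups, 15 went over Dixon's critical value, where chance gives about 1 in 20. WT CORT mouse H8 of the acute experiment had 3 of these, as the lowest for Gria4 (23.5 CPM, next 37.8, ratio 0.759), Grik1 (4.97 CPM, next 8.71, ratio 0.691) and Gabra3 (19.7 CPM, next 39.8, ratio 0.642). AS CORT mouse H20 was lowest for Grin2c (61.0 CPM, next 71.6, ratio 0.627) and Grik5 (331 CPM, next 383, ratio 0.641). AS vehicle mouse H13 was highest for Gria1 (1288 CPM, next 1202, ratio 0.671), WT CORT mouse H11 lowest for Grik2 (39 CPM, next 48.4, ratio 0.639) and WT vehicle mouse H6 lowest for Grm8 (2.298 CPM, next 3.56, ratio 0.651). AS vehicle mouse H17 had the highest log2 ratio of Grin2a to Grin2b (-0.41, next -0.53, ratio 0.627).

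In the continuous experiment AS vehicle mouse H2 was highest for Grin3a (60.2 CPM, next 48.3, ratio 0.853) and AS CORT mouse H7 highest for Grik3 (52.4 CPM, next 43.8, ratio 0.867). WT CORT mouse H3 was lowest for Grin2b (340 CPM, next 400, ratio 0.728), WT CORT mouse H15 lowest for Gabrb2 (112.7 CPM, next 124, ratio 0.735) and AS CORT mouse H10 lowest for Gabbr1 (847 CPM, next 884, ratio 0.767). H15 also had the highest log2 ratio of Gria1 to Gria2 (0.92, next 0.87, ratio 0.72).

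Grin2d differed between the genotypes in its acute response to CORT, by -0.44 on the log2 scale (adjusted p = 0.0426, edgeR), by -0.27 with an adjusted p of 0.891 with the term for H17 to H24, and by -0.17 with an adjusted p of 0.428 after removal of GC and length trends.

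The 20 liver libraries of the continuous experiment, which entered no comparison, held more than 3 counts of 7 subunit genes in every library. Gabbr2 ran from 299 to 1051 counts, Grik5 from 103 to 212, Grm8 from 30 to 97, Gabbr1 from 21 to 62, Grid1 from 13 to 80, Gabra3 from 11 to 38 and Gria3 from 5 to 42, in libraries of 18612550 to 20868924 counts. Another 12 subunit genes were at or under 3 counts in every liver library.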

How the results depend on the processing

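Over the called subunits and the alternatives tried, 353 of 493 values kept direction and call, 137 kept direction only and 3 reversed. The reversals were Grik5 in AS against WT mice with acute CORT (0.00213 on the log2 scale after removal of GC and length trends), Gabra2 in the same comparison (-0.0695 with the term for H17 to H24) and Gabra2 under CORT pellets over both genotypes (0.0202 with all 20 mice). The causes were not tested.

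The share of all genes that passed under the same setting follows each count in parentheses. In CORT against vehicle in acute AS mice the count of 4 subunits became 8 with limma-voom (34.6%), 1 without GC and length trends (16.8%), 0 at an adjusted p under 0.01 (6.36%) and 0 with the term for H17 to H24 (1.03%). In AS against WT mice with acute CORT the count of 8 became 1 (19.1%), 5 (11.7%) and 0 (0%) under the last 3 of these. The acute interaction, at 1, became 5 with DESeq2 (11.2%), 2 with DESeq2 size factors in edgeR (4.89%), 7 with limma-voom (22.9%) and 2 without H8 and H11 (6.59%). It became 0 with no filter on low counts (0.905%), without GC and length trends (0%), at an adjusted p under 0.01 (0%) and with the term (0.00684%). CORT pellets in WT mice gave 2 with limma-voom (4.23%) and 0 at an adjusted p under 0.01 (1.19%) or with all 20 mice (1.35%), against 1. In AS mice they gave 2 with DESeq2 (5.1%) and 1 with limma-voom (5.83%), without GC and length trends (4.11%) or with only the 2 groups compared (3.34%), against 0. Over both genotypes the 7 became 1 at an adjusted p under 0.01 (4.75%) and 1 with all 20 mice (7.33%). AS against WT over both treatments gave 1 with limma-voom (2.43%), against 0. The median level of 15 CPM per kb became 16.2 with the longest transcript.

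Leaving out each mouse gave 1 to 7 calls for CORT in acute AS mice (10.5% to 24% of all genes), with 1 without H15 or H22, 2 without H14 or H16 and 7 without H17. AS against WT mice with acute CORT gave 5 to 8 (18.8% to 28.6%), with 5 without H20. The acute interaction gave 0 to 5 (0% to 10.7%), with 0 without any one of H2, H3, H5, H10, H11, H14, H15, H16, H23 and H24, 2 without H1, H4 or H21, 3 without H6, H9 or H18, 4 without H8 and 5 without H17. CORT pellets gave 0 to 2 in WT mice (1.68% to 2.97%), with 0 without any one of H1, H3, H4, H6, H12, H17 and H20 and 2 without H5. They gave 0 to 1 in AS mice (2.43% to 4.08%), with 1 without H7 or H18. Over both genotypes they gave 3 to 9 (7.86% to 9.95%), with 3 without H19 and 4 without H12, H16 or H20. AS against WT over both treatments gave 0 to 1 (0.161% to 1.77%), with 1 without H14. No paired analysis was possible because the replicate numbers were given in accession order within each group and the labels tie no mouse of one group to a mouse of another.

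The term for H17 to H24 leaves AS CORT to be compared through 2 mice, so a missed threshold in that fit does not show that values were alike.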
